A study of Mus musculus with 2 samples.

Results

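Ubiquitin genes and the shuttle factors that carry ubiquitinated proteins to the proteasome were measured as 7 genes, matched by symbol among the 32285 genes of the count files: Ubb, Rps27a, Ubqln1, Ubqln2, Ubqln4, Rad23b and Zfand2a. All 7 were found. They were read in whole testis of C57BL/6 mice aged 13 days, in 1 single-cell library per genotype (10x 3′ chemistry, which counts unique molecules, UMIs, near transcript ends). The control was Psma7 F/+, with 1 floxed and 1 wild-type allele of Psma7, the gene of a subunit of the 20S proteasome core. The knockout was Psma7 F/-;Stra8-Cre KI/+, with 1 floxed allele, 1 allele deleted in every cell by the genotype, and Cre knocked in at Stra8, a gene that spermatogonia express in response to retinoic acid. The control carries no Cre by its label, so effects of the Cre, of the knock-in and of the deletion cannot be told apart. The number of animals per library is not given. With 1 library per genotype no test was possible. Intervals are 95%, cover counting error only, and say nothing of the spread between animals.

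Ubiquitin is a small protein that is joined to other proteins and, as a chain, marks them for the proteasome. Ubb encodes head-to-tail repeats of it, and Rps27a encodes a single ubiquitin fused to a ribosomal protein. Shuttle factors hold a ubiquitin-like domain that binds the proteasome and a domain that binds ubiquitin. They include RAD23B, which also acts in DNA repair, and the ubiquilins UBQLN1, UBQLN2 and UBQLN4. ZFAND2A, also called AIRAP, is an AN1 zinc finger protein that is induced by arsenite and heat shock and associates with the proteasome.

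On mm10, Ubb lies at chr11:62551171-62553213 and Rps27a at chr11:29545846-29548109. Ubqln1 lies at chr13:58176156-58215653, Ubqln2 at chrX:153498227-153501570 and Ubqln4 at chr3:88553758-88569725. Rad23b lies at chr4:55350043-55392237 and Zfand2a at chr5:139471211-139484549.

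The coding sequences show how the repeat gene and the fusion gene differ. In the GENCODE M21 transcripts the ubiquitin unit was 228 bases, or 76 codons. It occurred 4 times in Ubb and 1 time in Rps27a. The first 60 bases of each unit are shown because near-identical units and copies bear on how these genes can be counted. Capitals mark bases that differ from Rps27a, of which there were 12 in Ubb units 1 to 3 and 13 in unit 4.
Rps27a unit 1: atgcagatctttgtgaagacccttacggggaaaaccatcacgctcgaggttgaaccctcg
Ubb unit 1: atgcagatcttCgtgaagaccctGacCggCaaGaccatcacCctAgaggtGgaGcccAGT
Ubb unit 2: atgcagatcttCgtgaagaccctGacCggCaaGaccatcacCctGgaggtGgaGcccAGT
Ubb unit 3: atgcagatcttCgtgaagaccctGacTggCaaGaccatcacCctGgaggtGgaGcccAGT
Ubb unit 4: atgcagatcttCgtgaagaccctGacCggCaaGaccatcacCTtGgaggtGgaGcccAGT
Over the whole unit, Ubb units 2, 3 and 4 were 97.8%, 99.1% and 95.6% identical to unit 1, and the Rps27a unit 80.7%. In the last 500 bases of the Ubb transcript, 197 of 411 windows of 90 bases (47.9%) also occurred in the transcripts of Gm1821 or Gm8797. For Rps27a it was 377 of 411 (91.7%), in 4 other genes, none of them listed in the count files. The other 5 genes had 0 shared windows. Counts of Ubb and Rps27a are therefore uncertain, since reads matching several genes may have been dropped or split. Gm8797 held 0.55% as many UMIs as Ubb over all control cells and 0.489% over all knockout cells.

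The promoter of Zfand2a is shown because this gene differed between the libraries in germ cells. RefSeq promoter entries (GRCm38.p6) were matched for 5 of the 7 genes. The stretch is chr5:139484592-139484691, minus strand, from 200 to 101 bases before the RefSeq start. That start lies inside the gene span given above, so the 2 annotations place the start differently. Capitals mark matches, on either strand, to TTCNNGAA (a pair of heat shock element units), CCAAT and TGACGTCA (the CRE, bound by CREB and ATF factors), which did not overlap.
Zfand2a: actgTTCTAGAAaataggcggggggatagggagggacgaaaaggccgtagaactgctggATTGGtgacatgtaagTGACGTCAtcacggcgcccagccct
Of 32851 windows covering the 250 bases before a start, TTCNNGAA occurred in 7.17%, TGACGTCA in 1.55% and CCAAT in 33.8%. GAANNTTC, in 6.69% of them, was also searched and had 0 matches in the 5 genes. The other matches were CCAAT, 1 each in Ubb and Rad23b and 2 more in Zfand2a. A match describes these letters and is not a binding site.

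After doublets were left out, 10737 control and 10589 knockout cells were compared, at medians of 8046 and 5395 UMIs. Of all called barcodes, 29 were shared by the libraries. Cells were named from marker genes. Undifferentiated spermatogonia, the stem and progenitor cells, numbered 513 control and 288 knockout cells, at medians of 13350 and 13314 UMIs, with Gfra1 at 267 and 367 UMIs per 1000000 (CPM) and Kit at 32.4 and 20.4 CPM. Differentiating spermatogonia numbered 1921 and 112, cells entering meiosis 914 and 0, and spermatocytes 432 and 0. A count of 0 of 10589 cells allows a share of up to 0.0283%. Sertoli cells, which support the germ cells, numbered 3846 and 6536, and most of them lay in different clusters in each library. Psma7 was at 245 control and 94.3 knockout CPM in undifferentiated spermatogonia (log2 ratio -1.38), at 300.5 and 52.8 CPM in differentiating spermatogonia (-2.50, -2.86 to -2.18), and at 237 and 86.6 CPM in Sertoli cells (-1.46), a class that lacks 1 allele but that the Cre is not meant to act in. The Psma7 intervals of undifferentiated spermatogonia (-1.53 to -1.22) and Sertoli cells (-1.51 to -1.40) overlap. In the other 5 somatic classes compared the ratio of Psma7 was between -1.25 and -1.07. The deleted exons are not given, so the 3′ reads of Psma7 may come from outside them.

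In undifferentiated spermatogonia the knockout library held more Ubqln2 and Zfand2a, and near equal levels of the other 5 genes. Ubqln2 was at 8.90 CPM in the control (69 UMIs) and at 23.6 CPM in the knockout (105 UMIs), a 2.64-fold difference (log2 1.40, 0.95 to 1.87). Zfand2a was at 16.8 CPM (130 UMIs) and 29.0 CPM (129 UMIs), a 1.73-fold difference (log2 0.79, 0.43 to 1.15). Both intervals exclude 0. A difference of at least 1.5-fold was used throughout as a rule of size. By it 2 of the 7 genes were higher and 0 lower, beside 14.6% of the 14989 genes with at least 30 UMIs there that were higher and 8.59% that were lower. A count of 2 of 7 stands near that background. Ubqln2 was also past 2-fold, beside 6.02% of those genes.

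Ubb, the polyubiquitin gene, was at 1237 and 1207 CPM (-0.03, -0.08 to 0.01). Ubqln1 was at 92.9 and 92.3 CPM (-0.01), and Rad23b at 108 and 106 CPM (-0.02). Ubqln4 was at 12.4 and 12.6 CPM (0.03, -0.48 to 0.51), an interval so wide that a difference within it was not detectable at this depth. Rps27a was lower in the knockout, at 1483 and 1298 CPM (-0.19, -0.24 to -0.15), the one member of the 5 whose interval excludes 0.

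The Ubqln2 UMIs were spread over many cells. At least 1 UMI was found in 58 of 513 control cells (11.3%) and 76 of 288 knockout cells (26.4%), and the highest cell held 2 and 5 UMIs. Zfand2a was found in 105 (20.5%) and 91 cells (31.6%), and the highest cell held 3 and 4. With each cell thinned to 2000 UMIs, which left out 14 and 4 cells, the Ubqln2 shares were 2.20% (1.11 to 3.91) and 5.63% (3.25 to 8.99). Those of Zfand2a were 3.01% (1.69 to 4.91) and 4.93% (2.72 to 8.13). Thinned to 5000 UMIs, they were 5.57% (3.64 to 8.11) and 7.42% (4.53 to 11.3) for Ubqln2, and 8.69% and 12.9% for Zfand2a. The intervals of the thinned shares overlap for both genes at both depths.

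The cells were also split by Gfra1, a receptor of GDNF that marks the more stem-like cells, a split chosen after seeing the data. Among the 329 control and 222 knockout cells with a Gfra1 UMI, Ubqln2 was at 10.4 and 22.4 CPM (1.11) and Zfand2a at 17.8 and 28.3 CPM (0.67). Among the 184 and 66 cells without one, Ubqln2 was at 5.53 and 31.8 CPM (2.51, from 13 and 18 UMIs) and Zfand2a at 14.5 and 33.6 CPM (1.23, from 34 and 19 UMIs). Both genes were higher in the knockout library in both subsets. Rps27a differed by -0.03 in cells with a Gfra1 UMI and by -0.69 in cells without, and Ubb by 0.08 and -0.45. The cells without a Gfra1 UMI were shallower in the knockout, at medians of 11641 and 8273 UMIs.

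Other measures also differed between the libraries in undifferentiated spermatogonia. Of 19 early response genes that tissue dissociation can induce, 19 were above 0 and 13 at least 1.5-fold higher in knockout undifferentiated spermatogonia. Their median log2 ratio was 0.96 against 0.05 over all genes, of which 55.2% were above 0 and 14.6% at least 1.5-fold higher. Atf3 (1.63) and Ier3 (1.53) were the highest of them, and Klf2 (0.06) and Nr4a1 (0.15) the lowest. The summed level of 20 Sertoli markers was 338 control and 622 knockout CPM, against 12652 and 14805 in Sertoli cells, with 0 of the 20 at 0 and 15 of 17 measured above 0. The part of either list in the Ubqln2 and Zfand2a differences was not tested. Free RNA, read from barcodes of 10 to 100 UMIs, made up at most 3.17% and 3.41% of the UMIs of these cells. It held Ubqln2 at 29.2 and 43.4 CPM and Zfand2a at 9.13 and 18.4 CPM. With the measured share subtracted, the log2 ratio was 1.47 for Ubqln2 and 0.79 for Zfand2a.

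In differentiating spermatogonia the same 2 genes were past 1.5-fold, from few knockout cells. Ubqln2 was at 13.6 and 24.6 CPM (0.87, 0.30 to 1.36, from 34 knockout UMIs) and Zfand2a at 16.6 and 34.7 CPM (1.08, 0.60 to 1.49, from 48). Here 2 of 7 genes were at least 1.5-fold higher and 0 lower, beside 25.6% and 9.99% of all genes. Under that line, the intervals of Rps27a (0.38, 0.31 to 0.44), Ubqln1 (0.35, 0.03 to 0.65) and Ubb (0.06, 0.002 to 0.13) also exclude 0. Of the 112 knockout cells, 50 lay in an earlier cluster, 5 in a later cluster and 57 in a cluster of few UMIs (median 1693), which held only 2 knockout UMIs of each of these genes. Within the earlier cluster, Ubqln2 was at 14.4 and 26.6 CPM (0.91, 0.31 to 1.43) and Zfand2a at 16.5 and 38.3 CPM (1.22, 0.73 to 1.67). Rps27a was 0.14 higher there, and the intervals of Ubb, Ubqln1, Ubqln4 and Rad23b include 0. The dissociation list stood at a median of 0.94 in this class, with 12 of 19 genes at least 1.5-fold higher. Its part was not tested.

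With each library clustered alone, the values of differentiating spermatogonia moved: Ubqln2 was 0.51, under 1.5-fold, Zfand2a 0.63, Ubb 1.11, Rps27a 1.52 and Ubqln4 -1.70. Over all spermatogonia 2 of 7 genes were higher and 0 lower by 1.5-fold, beside 26.9% and 9.54% of all genes. Ubqln1 was then at 61.8 and 86.5 CPM (0.49) and Ubqln4 at 21.2 and 14.1 CPM (-0.58), just inside the line and at least 1.5-fold lower in 9 of 12 alternatives (-0.77 to -0.57), although within undifferentiated spermatogonia the interval of each includes 0. The later differentiating cluster, with control Ubqln1 at 44.6 CPM and Ubqln4 at 32.1 CPM, held 922 control and 5 knockout cells. Its part in the Ubqln1 and Ubqln4 values over all spermatogonia was not tested.

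**Figure D1:**
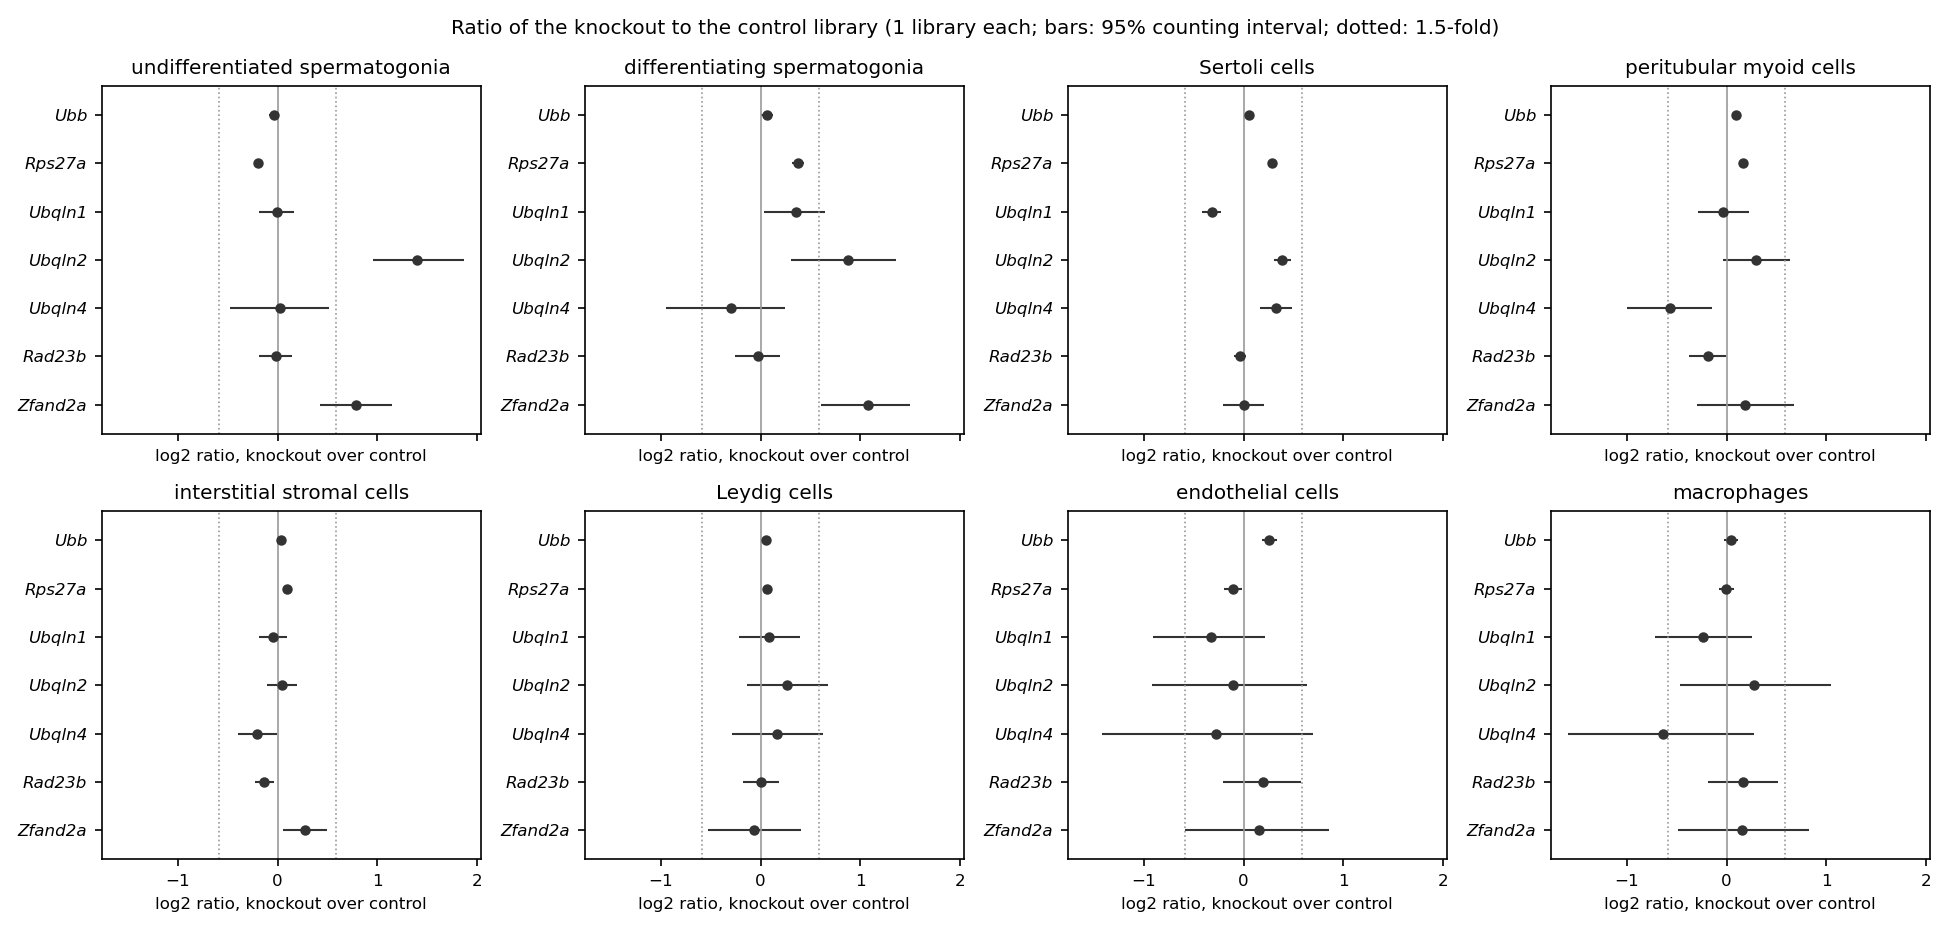
Log2 ratio of the knockout to the control library (x axis) for each gene (y axis) in 8 cell classes, with 95% counting intervals as bars and dotted lines at 1.5-fold. Ubqln2 and Zfand2a lie past the line in undifferentiated (1.40 and 0.79) and differentiating spermatogonia (0.87 and 1.08), and none of the 7 does in Sertoli cells.

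Along the control germ cells the 7 genes took different courses. Clusters were ordered by stage markers: undifferentiated, the earlier and later differentiating clusters (Dmrtb1 at 34.4 and 101 CPM, Esx1 at 33.6 and 352 CPM), meiotic entry (Stra8 at 1064 CPM) and spermatocytes (Sycp3 at 2856 CPM). Ubqln4, a ubiquilin that works with BAG6 on mislocalised proteins, was at 12.4, 17.1, 32.1, 32.2 and 7.07 CPM in that order. Its last step, from meiotic entry to spermatocytes, was a log2 difference of -2.18 (-2.62 to -1.78), the largest in size of the 28 steps between neighbouring clusters. Zfand2a was level through the spermatogonia, at 16.8, 16.5 and 17.2 CPM, and then lower, at 7.49 CPM in meiotic entry (step -1.20, -1.57 to -0.84) and 7.84 CPM in spermatocytes.

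Ubqln1 went down through the spermatogonia and up again, at 92.9, 61.0, 44.6, 61.1 and 68.0 CPM. The interval of each of its steps excludes 0 except the last. Ubqln2 was at 8.90, 14.4, 12.6, 11.6 and 16.1 CPM, with the first step (0.68) and the last (0.47) beyond counting error. Ubb peaked in the later differentiating cluster, at 1610 CPM, where Rps27a had its lowest level, at 1178 CPM. Rps27a then went to 1441 and 1977 CPM. Rad23b stayed between 105 and 132 CPM at all 5 stages.

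**Figure D2:**
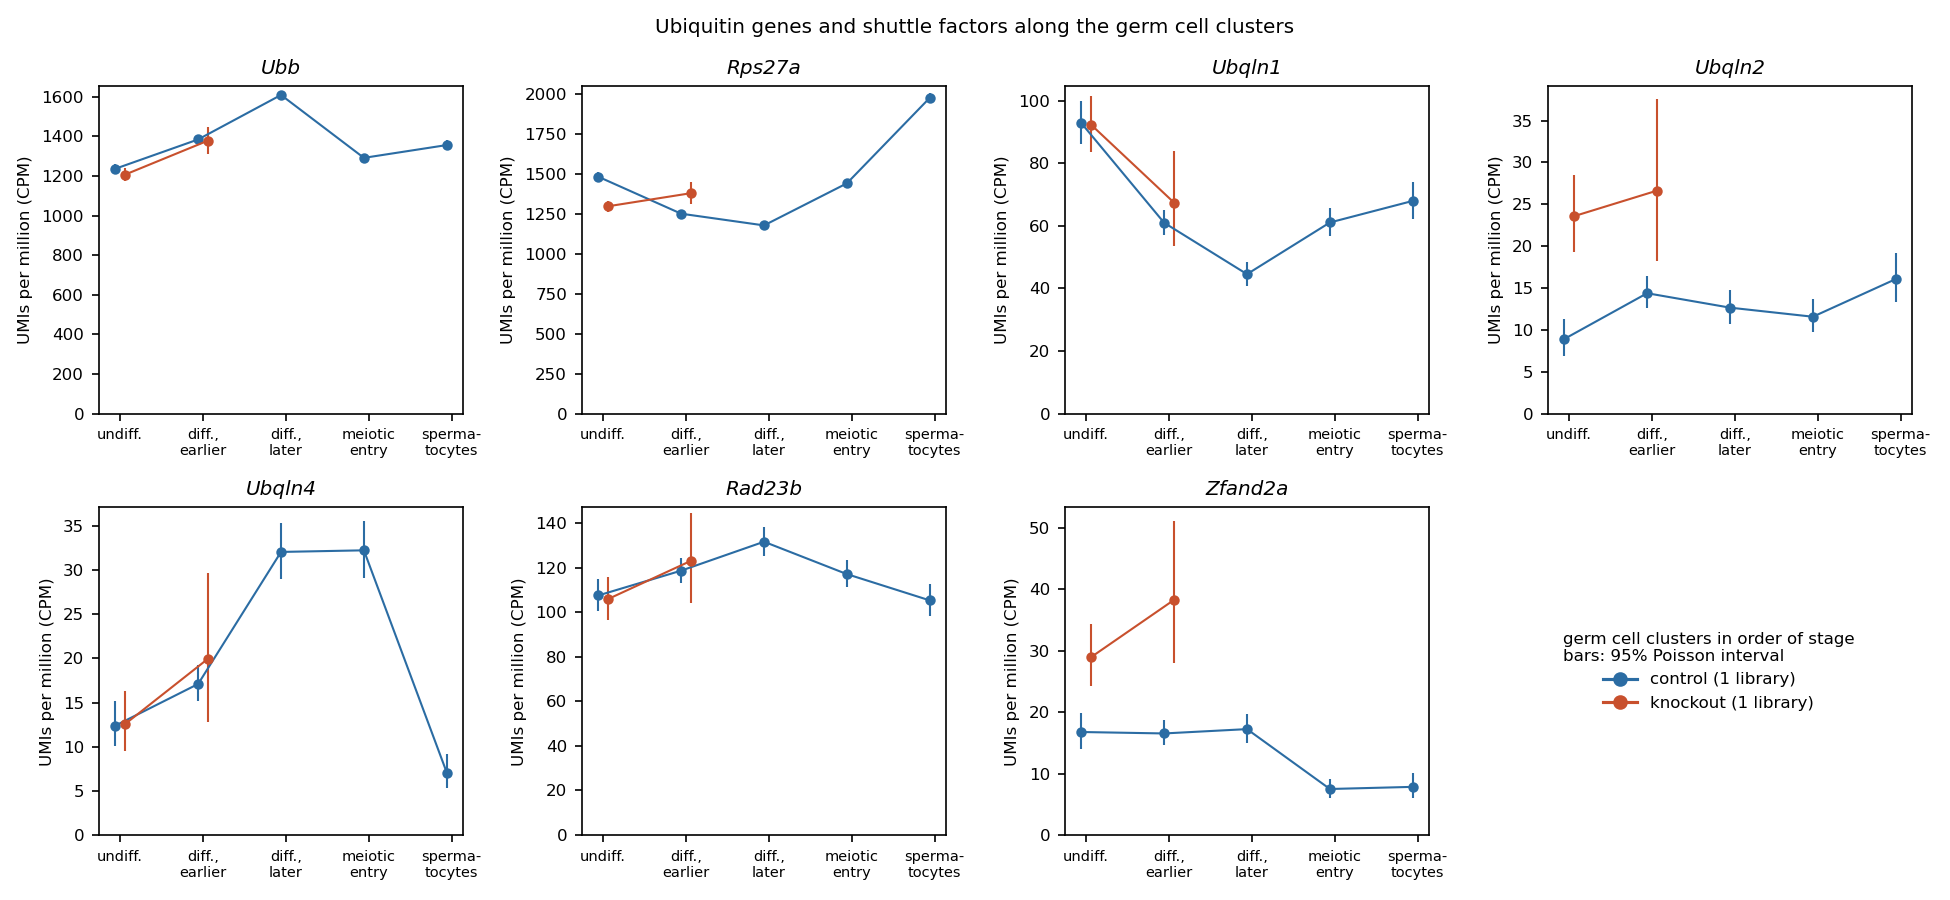
UMIs per 1000000 (CPM, y axis, from 0) of each gene along 5 germ cell clusters in order of stage (x axis), control in blue and knockout in orange, with 95% Poisson intervals and clusters of at least 50 cells. Knockout Ubqln2 (23.6 and 26.6 CPM) and Zfand2a (29.0 and 38.3 CPM) lie above the control at both stages that the libraries share, while intervals of Ubqln1, Ubqln4 and Rad23b overlap.

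Across cell classes Ubb and Rps27a were both highest in cells of the interstitium. Ubb was highest in interstitial stromal cells, at 2607 control and 2676 knockout CPM, and in Leydig cells, the steroid-making cells, at 2556 and 2646 CPM. These 2 classes overlapped within each library. It was lowest in undifferentiated spermatogonia, and the control range was 2.11-fold. Rps27a was highest in Leydig cells, at 2129 and 2230 CPM, and lowest in Sertoli cells, at 471 and 575 CPM, a control range of 4.52-fold. Control stromal cells (2016 CPM) and spermatocytes (1977 CPM) did not differ in Rps27a beyond counting error. Across the 8 classes with cells in both libraries, the log2 ratio of Ubb ran from -0.03 to 0.26 and that of Rps27a from -0.19 to 0.38.

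The shuttle factors had other orders. Ubqln1 was highest in undifferentiated spermatogonia in both libraries, with intervals apart from every other class, and lowest in stromal cells, at 38.8 and 37.6 CPM. Ubqln2 was highest in Sertoli cells in both, at 55.6 and 72.7 CPM, apart from stromal cells as the next class, at 32.9 and 33.9 CPM. In the control it was lowest in undifferentiated spermatogonia, a range of 6.24-fold, and in the knockout the range was 3.19-fold, with the 6 classes below stromal cells overlapping their neighbours. Rad23b had the narrowest range, 1.58-fold in the control and 1.73-fold in the knockout, and was highest in Sertoli cells, at 132 and 128 CPM, which overlapped differentiating spermatogonia. Zfand2a was highest in control endothelial cells (26.8 CPM) and macrophages (25.0 CPM), which overlapped, and lowest at meiotic entry. In the knockout it was highest in differentiating spermatogonia, with endothelial cells (29.6 CPM), undifferentiated spermatogonia and macrophages (28.0 CPM) overlapping.

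**Figure D3:**
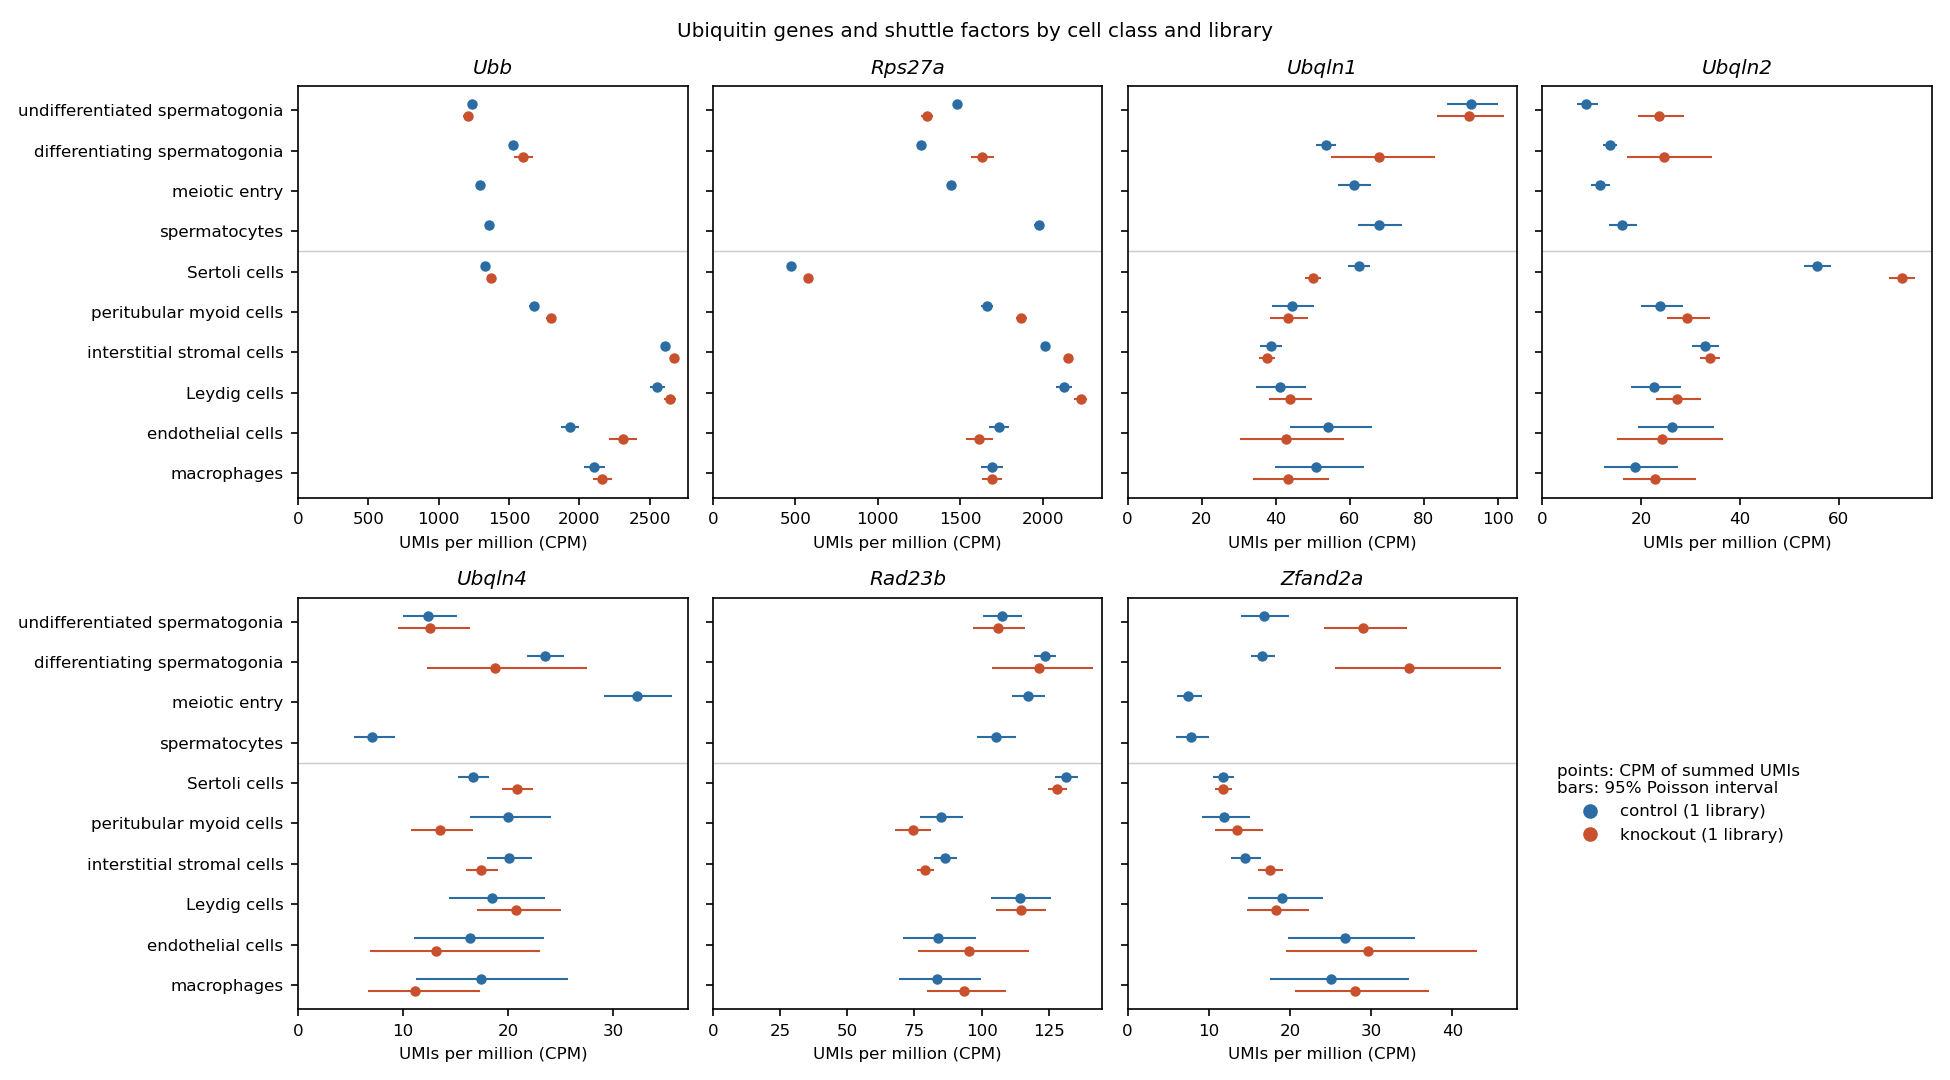
UMIs per 1000000 (CPM, x axis, from 0) of each gene in 10 cell classes (y axis), control in blue and knockout in orange, with 95% Poisson intervals as bars. Meiotic entry and spermatocytes had no knockout cells. Ubqln2 is highest in Sertoli cells, at 55.6 and 72.7 CPM, and Rps27a is lowest there, at 471 and 575 CPM.

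In Sertoli cells 0 of 7 genes were at least 1.5-fold apart, beside 18.3% of all genes higher and 8.92% lower. Ubqln2 was at 55.6 and 72.7 CPM (0.39, 0.30 to 0.48), Ubqln4 at 16.7 and 20.9 CPM (0.32, 0.16 to 0.49) and Ubqln1 at 62.5 and 50.04 CPM (-0.32, -0.41 to -0.23). The intervals of Rad23b (-0.04) and Zfand2a (-0.00) include 0. Ubb was at 1326 and 1373 CPM (0.05) and Rps27a 0.29 higher. These values rest on which clusters are compared. In the 6 Sertoli clusters with at least 50 cells in each library, a comparison added after seeing the data, Ubqln2 was above 0 in 3 of 6, Ubqln4 in 2 of 6 and Ubb in 1 of 6, and Ubqln1 was below 0 in 5 of 6. Summed over those clusters, Ubb was -0.40, Rps27a -0.10, Ubqln2 0.23, Ubqln4 0.31 and Ubqln1 -0.13. The dissociation list was higher in Sertoli cells too, at a median of 0.90, with 17 of 19 genes past 1.5-fold, and its part was not tested.

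In each of the other somatic classes at most 1 of the 7 genes was past 1.5-fold, a count near the share over all genes. In macrophages 1 of 7, Ubqln4, was at least 1.5-fold lower, at 17.4 and 11.1 CPM from 25 and 19 UMIs (-0.64, -1.59 to 0.27), and 0 were higher, beside 8.15% of genes lower and 7.18% higher. Its interval includes 0. In peritubular myoid cells, the contractile cells of the tubule wall, 0 of 7 were past the line, beside 5.93% higher and 6.81% lower, and Ubqln4 came nearest, at 20.0 and 13.5 CPM (-0.57, -0.99 to -0.15). Myoid cells fell into 2 clusters, and in the smaller, of 217 and 342 cells and named after its values were seen, Ubqln4 was -0.81 and Ubqln2 0.74, against -0.07 and 0.01 in the larger. Stromal cells (5.91% and 3.13% of genes), Leydig cells (5.2% and 5.27%) and endothelial cells (8.63% and 5.68%) had 0 of 7 past the line. Ubb was higher in knockout endothelial cells, at 1932 and 2312 CPM (0.26, 0.18 to 0.34), and Zfand2a in stromal cells, at 14.5 and 17.6 CPM (0.27, 0.06 to 0.50).

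Over all called cells 1 of 7 genes was at least 1.5-fold higher and 0 lower, beside 20.3% and 26% of all genes. This was Ubqln2, at 27.8 and 49.0 CPM (0.82). Sertoli cells, where it is highest, made up 35.8% of control and 61.7% of knockout cells, and within them its log2 ratio was 0.39. The part of these cell shares in the 0.82 was not tested.

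Patterns over the classes tied Rps27a to other ribosomal protein genes. Over 18 levels (10 control and 8 knockout classes), the genes most like it by Pearson's r of log2(CPM + 1) were Rpl10a (0.987), Rps7 (0.974) and Rpl5 (0.971), all genes of the large or small ribosomal subunit, while r with Ubb was 0.596. In undifferentiated spermatogonia its ratio of -0.19 ranked 3 from the lowest of 81 ribosomal genes, whose others had a median of 0.03. In Sertoli cells it ranked 31 of 81, and in differentiating spermatogonia 36 of 81. Ubb was most like Vcam1 (0.952), Tmub2 (0.952) and Serpinb1a (0.942), and Ubqln1 most like Mad1l1 (0.942), Ankrd6 (0.924) and Zscan20 (0.917). Between Ubb and Ubqln1 r was -0.836. Ubqln2 was most like BC034090 (0.925), Kazald1 (0.908) and Samd5 (0.905), and Ubqln4 most like Ankrd24 (0.805), Cpox (0.776) and Zbtb12 (0.769). Rad23b was most like Svip (0.937), Bex4 (0.907) and Cmtr1 (0.899), and Zfand2a most like Fbxl14 (0.919), Tmem160 (0.919) and Irgm1 (0.896). The points share 2 libraries and their depth, and 12076 genes were compared, so these values only describe the patterns.

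Around the 7 genes, most pathway genes in undifferentiated spermatogonia differed by less than 1.5-fold, as did most genes of any kind there. Of the 14989 genes with at least 30 UMIs, 14.6% were at least 1.5-fold higher and 8.59% at least 1.5-fold lower. Of the same genes 55.2% were above 0, the share that belongs beside each count above 0 in this class. Past that line among the stress factors and AN1 genes were Sqstm1, the autophagy receptor p62, at 126 and 284 CPM (1.17, 1.05 to 1.29), and Zfand5, an AN1 zinc finger gene, at 233 and 374 CPM (0.68, 0.58 to 0.78). Sqstm1 was counted with 5 proteasome stress factors, of which 5 were above 0 and 1 past the line, with a median of 0.40. Nfe2l1, which induces proteasome genes, was 0.40, Ngly1, which processes it, 0.37, Nfe2l2 0.38 and Hmox1 0.40. Of the other 6 AN1 genes 2 were above 0 and 1 past the line, and Zfand3 (-0.36) and Zfand2b (-0.33), the closest relative of Zfand2a, were lowest. The interval of Zfand2b (-0.75 to 0.07, from 162 and 74 UMIs) includes 0, and in differentiating spermatogonia its log2 ratio was 1.00 (0.46 to 1.46).

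Among other shuttle factors and relatives, Ddi2 (-0.00) and Nub1 (0.08) were under 1.5-fold, and Ddi1, Ubqln5 and Ubqlnl had 0 UMIs in both libraries, which allows up to 0.387 control and 0.674 knockout CPM. The proteasomal receptors of ubiquitin, Psmd2 (0.18), Psmd4 (0.26) and Adrm1 (0.27), were 3 of 3 above 0. The activating enzymes Uba1 (-0.12) and Uba6 (-0.17) were both below.

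Of 8 deubiquitinases 5 were above 0 and 0 past the line, with Psmd14 (0.16) and Otulin (0.12) highest. Uchl1, a marker of spermatogonia, was lowest at 474 and 352 CPM (-0.43), followed by Otub1 (-0.23). Of 11 genes of the p97 segregase 6 were above 0 and 0 past the line, from Ubxn2a (-0.51) and Ubxn6 (-0.29) to Ubxn4 (0.26) and Ufd1 (0.26). Both counts above 0, 5 of 8 and 6 of 11, stand near the 55.2% of all genes. All 5 BAG6 genes were below 0, between -0.18 and -0.02, but the interval of each includes 0. Of 16 heat shock genes 15 were measured and 15 were above 0, with a median of 0.13. Of these 2 were past the line, Hspb1 at 5.93 and 12.6 CPM (1.08) and Hspa1b at 20.5 and 31.0 CPM (0.60).

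**Figure D4:**
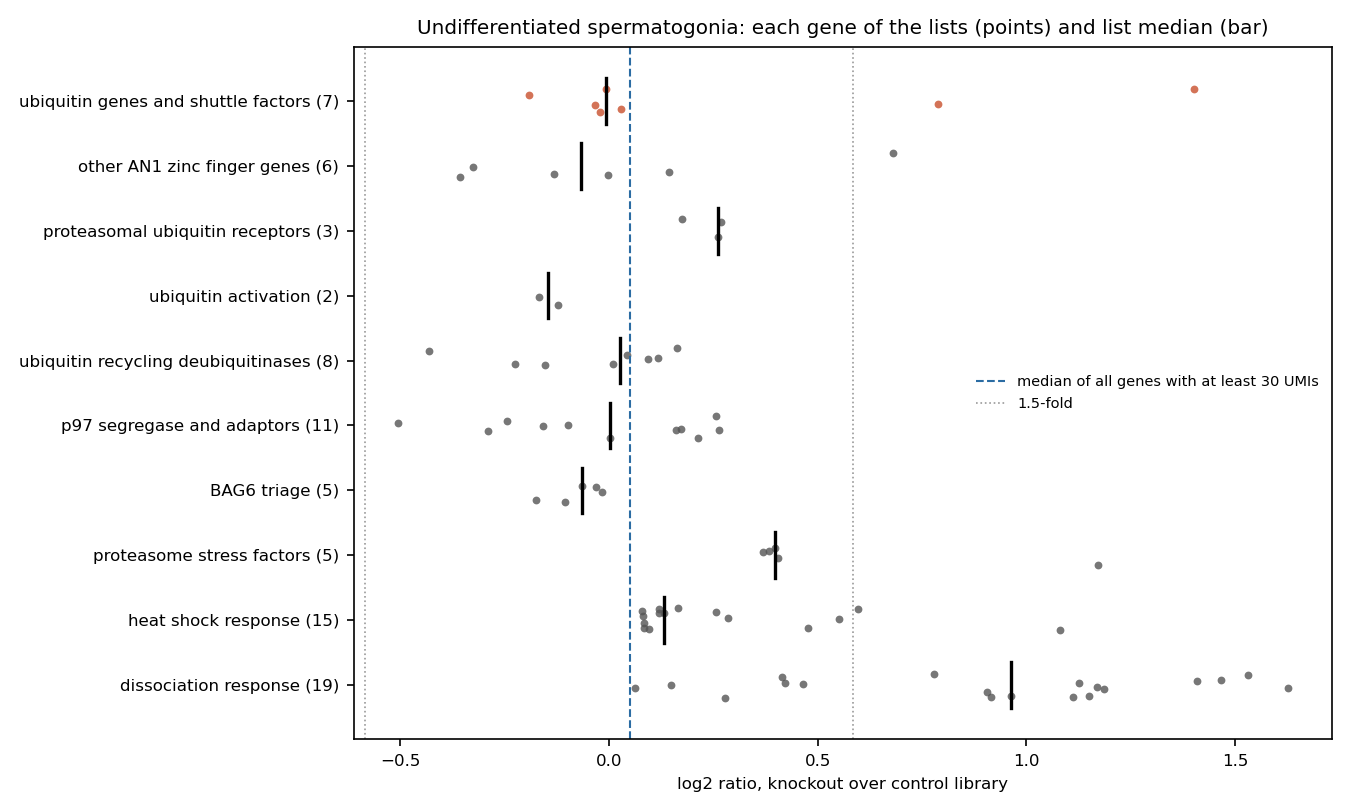
Log2 ratio of the knockout to the control library in undifferentiated spermatogonia (x axis) for each measured gene (points) of the gene lists (y axis, number measured in parentheses), with each list's median as a bar and dotted lines at 1.5-fold. The dissociation list lies farthest to the right, with a median of 0.96 against 0.05 over all genes (dashed line).

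The same lists had other orders in Sertoli cells, where 18.3% of all genes were at least 1.5-fold higher and 8.92% lower. Nfe2l1 was at 157 and 278 CPM (0.82), Hmox1 0.63 and Sqstm1, at 297 and 439 CPM, 0.56, so 2 of 5 stress factors were past 1.5-fold. Uba6 was lower, at 170 and 102 CPM (-0.74), and so was Uchl1, at 118 and 68.1 CPM (-0.79). All 5 BAG6 genes were above 0 here, beside 53.2% of all genes. Bag6 was at 0.55, Ubl4a at 0.52, Rnf126 at 0.31, Sgta at 0.18 and Get4 at 0.13. Of 16 heat shock genes 5 were at least 1.5-fold higher, led by Hspa1b (1.06) and Dnajb1 (1.04), and Fkbp4 was lowest at -0.53. Ddi2 was -0.12 and Nub1 0.01. Of the p97 and AN1 genes 0 were past the line.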

How the data were processed

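The authors deposited raw UMI counts per gene and barcode for 1 control and 1 knockout library of whole testis. The file headers name Cell Ranger 7.1.0, and the genome was mm10 per the submitters' processing notes. The matrices are unfiltered (1707157 and 1477364 barcodes, totals of 146528736 and 112746953 UMIs). Barcodes with at least 1000 UMIs, at least 500 genes and at most 20% mitochondrial UMIs were called cells, 11232 control and 10864 knockout. Scrublet (scanpy 1.11.5) marked doublets. Since its own threshold for the knockout marked 0 cells and so did not work, that of the control served in both libraries, which left out 495 (4.41%) and 275 (2.53%), a choice made after seeing the data. Counts scaled to 10000 UMIs and logged gave 2000 variable genes, 30 components, 15 neighbours and 30 joint Leiden clusters (resolution 1, leidenalg 0.10.2). A cluster was named by at least 3 markers that were 1.5-fold over other cells and in 20% of its cells, details settled after seeing the clusters.

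UMIs were summed per class and library, and CPM is out of all UMIs of that sum, with exact Poisson intervals. A log2 ratio is knockout over control with 0.5 added to each count, with an exact conditional interval (scipy 1.17.1). Genes with at least 30 UMIs over both libraries count as measured. Shares of cells have exact Clopper-Pearson intervals, and a count of 0 allows 3 counts. GENCODE M21 held 32158 of the 32285 gene identifiers. The code for ratios and intervals was tested on simulated data. The 7 genes and the gene lists were chosen with earlier results of these data known. Named genes are the 7, the 2 highest and 2 lowest of each list, all genes of lists of up to 6, the 3 genes most like each of the 7, Psma7 and markers, and some genes of the lists are not reported here. Alternatives were other cell thresholds, doublets kept, resolution 2, each library clustered alone, pathway genes left out of the clustering, centring, equal cell weights, and free RNA subtracted.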

Additional observations from a re-analysis of the deposited data

How the results depend on the processing

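No paired analysis was possible because each genotype has 1 library, so no replicate could be left out either. In undifferentiated spermatogonia Ubqln2 (1.11 to 2.51) and Zfand2a (0.67 to 1.23) stayed past 1.5-fold in 13 of 13 alternatives, the Gfra1 split included. The thinned shares of cells are not among the 13, and their intervals overlap for both genes at both depths. With pathway genes left out of the clustering, the class held the same numbers of cells, 513 and 288, so that alternative was a weak check. So was resolution 2, with 514 and 290 cells in the class. The 2 Gfra1 subsets are parts of the same cells, so the 13 are not independent checks. Counted at 2-fold, 1 of the 7 genes was past the line there in place of 2. Ubqln4 in macrophages was past 1.5-fold in 6 of 11 alternatives (-1.49 to -0.49) and in myoid cells in 4 of 11 (-0.73 to -0.42), so neither call is firm at these counts.

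The median log2 ratio of the 7 genes lay near 0 and moved with the choices. In Sertoli cells (0.05) it was 0.107 with at least 500 UMIs and 250 genes, 0.164 with at least 2000 UMIs and 1000 genes, 0.205 with at most 10% mitochondrial UMIs, 0.109 at resolution 2, 0.0153 centred on the median gene, -0.0246 with cells weighted equally, 0.0132 with 10% free RNA subtracted, -0.242 with the measured share subtracted and 0.0137 over clusters with 50 cells in both libraries. Over all spermatogonia (0.0764) it was -0.0294 with at most 10% mitochondrial UMIs, -0.0476 centred, 0.183 with equal weights and 0.0408 without clusters of few UMIs. Over all called cells (0.0775) it was 0.153 with at most 10% mitochondrial UMIs, 0.158 centred, -0.0501 with equal weights and 0.104 with 10% free RNA subtracted. The cause was not tested. The measured share of free RNA is an upper limit, 19.2% in knockout Sertoli cells.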
